A study of Rattus norvegicus with 8 samples.

Results

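The genes described here are 10 used as markers of the alveolar macrophage, the resident phagocyte of the air spaces. Some, such as Atp6v0d2 and Plet1, are not confined to it. The structural genes are Krt79 and Dst, and the surface genes are Cd9, Plet1, Itgax, Car4 and Tgfbr2. The others are the secreted lectin gene Chi3l1, the proton pump gene Atp6v0d2 and the transcription factor gene Bach2. All 10 were chosen by name, as non-control spots whose gene name in the array files equals a member. That match found 8 of the 10. Itgax was found only by the gene description in the files, which name its probe by a transcript, and Bach2 only by its RefSeq accession, since the files carry an older locus name for it. All 10 were therefore on the array, 7 were well above background and tested, and the test ran over 15651 genes.

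RNA came from NR8383, a permanent macrophage line that was started from cells washed out of the lung of a normal rat and that grows partly attached and partly floating. It was measured at passage 200 (P200, 4 arrays) and at passage 20 (P20, 4 arrays), with the same medium, serum and 48 h seeding for both, and with no treatment. Rat strain, and whether the P200 cells descend from the P20 cultures, are not given in the sources used here. The replicates are called biological in the labels, which do not say what separated them, so the p-values measure the spread among these arrays. Because each passage is 1 line at 1 point in culture, the passage number and any other difference between these stocks cannot be told apart.

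Alveolar macrophages take their identity after birth from signals of the air space, chiefly GM-CSF and TGF-beta, which act through the nuclear receptor PPAR-gamma. They clear surfactant and inhaled particles and lie against the epithelium, which they touch through integrins and other surface proteins. The marker use of Krt79, Car4, Plet1 and Bach2 in these cells is known mainly from mice.

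All values below are log2 of an array's processed signal less the 75th percentile over the probes of that array, so that 0 is that percentile. It was taken after the spots of each probe were averaged. Of the 8 arrays, each had between 51.02% and 54.47% of its spots well above background and none saturated. Over all non-control spots, the 75th percentile of signal ran from 978.75 to 1869.1. This is a different percentile from the one subtracted. On such arrays a mean over all cells is read, so fewer cells of a type and less RNA per cell cannot be told apart. The arrays lie in 2 rows of 1 slide. P200 replicates 2, 3 and 4 share row 1 with P20 replicate 1, and P200 replicate 1 shares row 2 with P20 replicates 2, 3 and 4.

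Of the 10 markers, 7 were above background on all arrays of both passages. The keratin gene Krt79 and the tetraspanin gene Cd9 rose at P200, by 1.62-fold and 1.33-fold, the cytolinker gene Dst fell by 1.31-fold, and Plet1, Itgax, Atp6v0d2 and Tgfbr2 did not pass the test. Car4, Chi3l1 and Bach2 were above background at neither passage. Thus 3 of the 7 tested members passed limma's test at an adjusted p under 0.05, against 11.5% of all genes tested. The rises are 2 of 7, against 6.00% of all genes, and the fall is 1 of 7, against 5.54%. The P200 and P20 arrays of these 3 did not overlap, which was so for 19.6% of all genes. Among the genes above background on all 8 arrays, as these 7 are, 10.2% passed, 5.61% higher and 4.55% lower at P200. Across all genes the median log2 change was -0.00, and 90% of genes lay between -0.43 and 0.45.

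**Figure D1:**
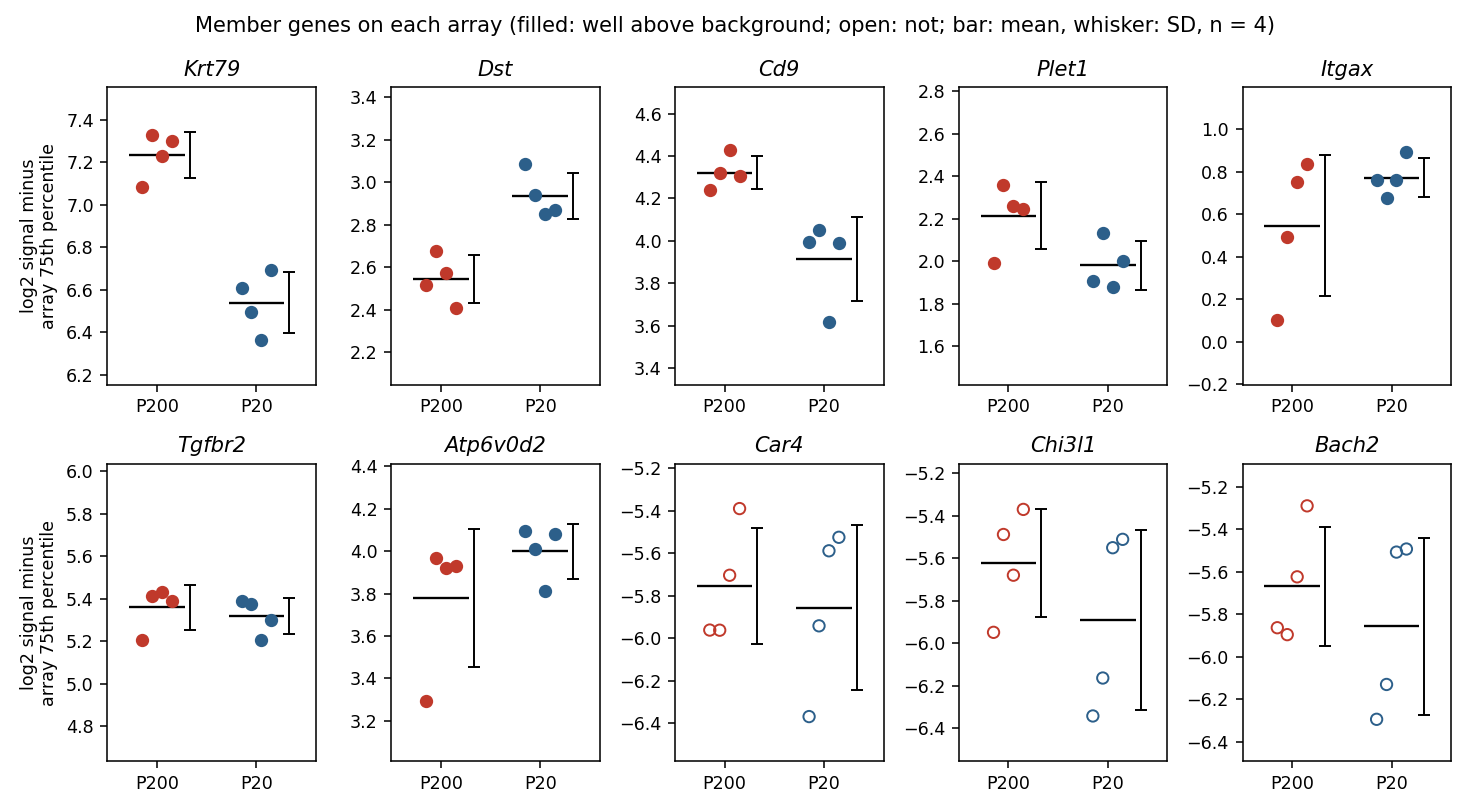
Log2 signal less the 75th percentile of the array, for the 10 members at P200 (red) and P20 (blue), 1 point per array, with the mean as a bar and the SD as a whisker (n = 4). In 3 of 7 tested members, against 19.6% of all genes, the groups do not overlap: Krt79 and Cd9 lie higher on every P200 array than on any P20 array and Dst lower, while the open points of Car4, Chi3l1 and Bach2 were not well above background; each panel has its own axis.

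Krt79 encodes a type II keratin, an intermediate filament protein otherwise known from the ducts of skin glands, and its transcript is a marker of mouse alveolar macrophages. Its probe lies at chr7:140632833-140632892 on the minus strand of rat assembly rn4, as the files map it, and is printed on 10 spots of each array. The stretch from base 31 to base 60 of the probe is shown, because it holds the hexamer AATAAA, the usual polyadenylation signal, in capitals. The hexamer stands on the probe strand of 9.04% of all probes on the array, and overlap with other motifs was not examined.

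Krt79 probe, bases 31 to 60: gcctgtgatgtgtctcAATAAAcagtaact

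Krt79 was at 7.08, 7.33, 7.23 and 7.30 on P200 replicates 1 to 4, against 6.61, 6.49, 6.36 and 6.69 on P20 replicates 1 to 4. Every P200 array was above every P20 array. The means were 7.23 ± 0.11 at P200 and 6.54 ± 0.14 at P20 (SD, n = 4 each), a log2 change of 0.69 ± 0.09 (SE, 95% interval 0.49 to 0.90, adjusted p = 0.00121). The SD among the 10 spots within an array was 0.0748 to 0.174, smaller than the change. The difference was 0.68 within slide row 1 and 0.57 within slide row 2. When arrays were scaled to their median, its adjusted p was 0.222.

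Many genes mapped near Krt79 also rose. Within 5 Mb of its probe, 121 other genes were tested, of which 51 rose and 3 fell, so that 44.6% passed, and their median log2 change was 0.33. The median over the 936 tested genes of chromosome 7 was 0.15. Around the other 6 tested members the median within 5 Mb lay between -0.01 and 0.05, with 3.92% to 19.2% of genes past the test. Whether the Krt79 rise has a part in common with its neighbours was not tested.

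**Figure D2:**
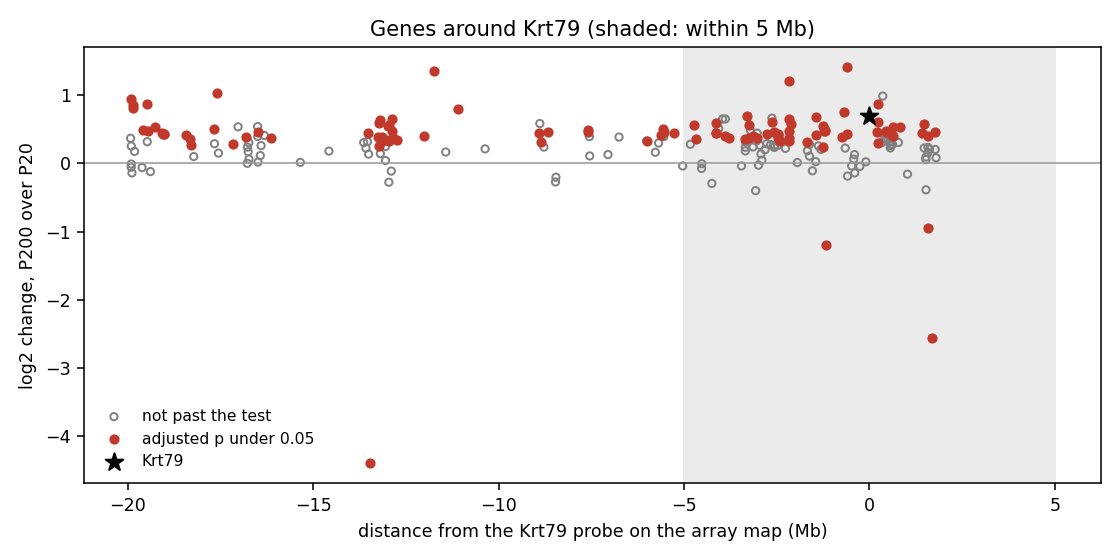
Log2 change, P200 over P20, of tested genes on chromosome 7 against their distance in Mb from the Krt79 probe on the map in the files. Filled points passed the test at an adjusted p under 0.05 and the star is Krt79; within 5 Mb (shaded) 51 filled points lie above 0 and 3 below it.

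Dst encodes dystonin, a plakin that ties intermediate filaments, actin and microtubules to each other and to adhesion sites, and which is made as several long isoforms. The array holds 3 probes for it on chromosome 9. The probe with the highest signal was used for the gene and lies at chr9:33051093-33051152, while the second lies at chr9:32927114-32927173, both on the plus strand. A stretch of each is shown since the probes gave different values, with the hexamer AATAAA again in capitals.

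Dst probe with the highest signal, bases 1 to 30: tcgatttggagtgaccaaaagatacttgaa

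Dst second probe, bases 7 to 36: catggttaagtgaatgAATAAAacatctca

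The probe with the highest signal read 2.52, 2.68, 2.57 and 2.41 on the P200 arrays and 3.09, 2.94, 2.85 and 2.87 on the P20 arrays. All P200 values lay below all P20 values. Means were 2.54 ± 0.11 at P200 and 2.94 ± 0.11 at P20 (SD, n = 4 each), a log2 change of -0.39 ± 0.08 (95% interval -0.58 to -0.21, adjusted p = 0.0152). The difference within slide row 1 was -0.54 and within row 2 it was -0.37.

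The second Dst probe read -1.86, -1.42, -1.57 and -1.63 at P200, against -1.58, -1.26, -1.57 and -1.71 at P20, and these groups overlapped. Its log2 change was -0.09 ± 0.12 (95% interval -0.37 to 0.18, adjusted p = 0.716 over all probes, of which 10.8% passed). The changes of the 2 probes differed by 0.30, with p = 0.0571 in a two-sided exact permutation test over the arrays, or 0.114 adjusted over the 2 genes with a probe pair, where the smallest p the design allows is 0.0286. When the probes were averaged, the Dst change was -0.24 and did not pass (adjusted p = 0.127). The remaining probe, matched by its description at chr9:32926072-32926131, was above background on 0 P200 arrays and 2 P20 arrays and was not tested. The Dst fall is thus a fall of 1 probe.

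In the list of 19 other keratins, plakins and partners of the intermediate filament, 8 genes were measured, 3 rose, 0 fell and 5 did not pass. The median log2 change over the 8 was 0.19, and 37.5% passed, against 11.5% of all genes. The percentages of the lists below stand against that same 11.5%, and the phrase "no overlap" against 19.6%. The plakin gene Macf1 had a difference of 0.19 ± 0.12 (SE, adjusted p = 0.409). Plectin (Plec), another plakin, rose by 0.64 ± 0.16 (SE, adjusted p = 0.0307). Plec read 5.03, 4.99, 5.07 and 5.66 at P200 against 4.60, 4.35, 4.52 and 4.72 at P20. P200 replicate 4 was the highest array, and Plec passed in 4 of 8 fits with an array left out. The hemidesmosome genes Itga6 (0.53 ± 0.08, adjusted p = 0.00357) and Col17a1 (0.39 ± 0.07, adjusted p = 0.00885) rose too. Vim, the main intermediate filament gene of macrophages, had a difference of 0.05 ± 0.06 (adjusted p = 0.718). The epithelial keratins Krt7, Krt8, Krt18, Krt19, Krt5 and Krt10 and the desmosome plakins Dsp and Ppl were above background on no array.

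Cd9 encodes a tetraspanin, a membrane protein that groups integrins and other partners into patches and takes part in cell fusion and vesicle release. Its probe is mapped in the files to a span of 8573 bases, chr4:162283341-162291913 on the minus strand, although the probe has 60 bases. The whole probe is shown, since its mapped span is longer than the probe itself.

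Cd9 probe, bases 1 to 60: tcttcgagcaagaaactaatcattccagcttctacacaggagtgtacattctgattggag

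Cd9 read 4.24, 4.32, 4.43 and 4.30 at P200, against 4.00, 4.05, 3.62 and 3.99 at P20. The groups did not overlap, and P20 replicate 3 lay apart below the other P20 arrays. The means were 4.32 ± 0.08 at P200 and 3.91 ± 0.20 at P20 (SD, n = 4 each), a log2 change of 0.41 ± 0.10 (95% interval 0.18 to 0.64, adjusted p = 0.0344). Within slide row 1 the difference was 0.35 and within row 2 it was also 0.35. This call is close to the threshold: it passed in 8 of 19 other settings. It did not pass without P200 replicate 2, 3 or 4, or without P20 replicate 1 or 4, with adjusted p from 0.0599 to 0.0954. With slide row as a block the adjusted p was 0.137, and over the 8 arrays left out in turn the change ran from 0.31 to 0.45.

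Among 19 other tetraspanins and their partners, 12 were measured, 3 rose, 0 fell and 9 did not pass, with a median change of 0.03 and 25.0% past the test. The 3 were Tspan31 (0.56 ± 0.07, adjusted p = 0.00109), Cd81 (0.33 ± 0.09, adjusted p = 0.0464) and Cd82 (0.27 ± 0.07, adjusted p = 0.0493). Cd81, known to form complexes with Cd9, had 3.38, 3.48, 3.72 and 3.68 at P200, against 3.30, 3.25, 3.14 and 3.26 at P20. Cd81 and Cd82 passed in 7 and 4 of 19 other settings and each in 1 of 8 fits with an array left out. Cd63, the tetraspanin of late endosomes, had a difference of -0.18 ± 0.09 (adjusted p = 0.286).

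Plet1 encodes a protein held in the outer membrane by a lipid anchor and marks lung macrophages and some dendritic cells in mice. Its probe, of 60 bases, maps to a span of 4422 bases at chr8:53852303-53856724 on the plus strand. It read 1.99, 2.36, 2.26 and 2.25 at P200, against 1.91, 2.13, 1.88 and 2.00 at P20, and the groups overlapped. The change was 0.23 ± 0.09 (95% interval 0.02 to 0.45), with an unadjusted p of 0.0375 and an adjusted p of 0.175. It passed in 0 of 19 other settings, and was 0.38 within slide row 1 and -0.01 within row 2.

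Itgax encodes CD11c, the integrin alpha X chain that pairs with the beta2 chain Itgb2 to bind complement fragments, and it is the usual surface label of alveolar macrophages. Its probe lies at chr1:187416145-187416204. It read 0.10, 0.49, 0.75 and 0.84 at P200, against 0.76, 0.68, 0.76 and 0.89 at P20. P200 replicate 1 was low and the other P200 arrays lay at or near the P20 range. The change was -0.23 ± 0.15 (95% interval -0.57 to 0.12, adjusted p = 0.435), and without P200 replicate 1 it was -0.08.

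Of 10 further beta2 integrin chains, ligands and adaptors, 7 were measured, 1 fell, 0 rose and 6 did not pass. Their median change was -0.23 and 14.3% passed. The gene that fell was Itgam, the alpha M chain of CD11b, which alveolar macrophages of mice carry at low level. It read 1.87, 2.08, 2.35 and 2.22 at P200, against 2.93, 2.63, 2.95 and 3.12 at P20, a change of -0.78 ± 0.13 (adjusted p = 0.00514). Its P200 arrays were all below its P20 arrays. The shared partner Itgb2 had a difference of -0.23 ± 0.10 (adjusted p = 0.192).

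Tgfbr2 encodes the type II receptor that binds TGF-beta and then activates the type I receptor Tgfbr1, and mouse alveolar macrophages need it to develop. Its main probe lies at chr8:120591185-120591244 on the minus strand and is printed on 10 spots. It read 5.20, 5.41, 5.43 and 5.39 at P200, against 5.39, 5.37, 5.21 and 5.30 at P20, with full overlap. The change was 0.04 ± 0.07 (95% interval -0.13 to 0.21, adjusted p = 0.794), and the spread among spots within an array was 0.0531 to 0.0805 (SD). A second probe at chr8:120593700-120593759 gave 0.09 ± 0.09 (adjusted p = 0.604 over all probes). The difference between the 2 probes was -0.05 (two-sided exact permutation p = 0.571). With slide row as a block the sign turned, at -0.034.

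Of the 27 other TGF-beta pathway genes, 17 were measured, 4 rose, 1 fell and 12 did not pass, which is 29.4%, with a median change of 0.09. Tgfbr1, the partner of Tgfbr2, was at 1.98, 1.81, 2.03 and 1.83 at P200, against 1.50, 1.39, 1.23 and 1.27 at P20, a rise of 0.57 ± 0.08 (adjusted p = 0.00287) with no overlap. Acvrl1, another type I receptor gene, rose by 0.39 ± 0.09 (adjusted p = 0.0233). The fourth counted rise is that of the activin receptor gene Acvr1b, which entered the test only through P200, with 4 P200 arrays and 1 P20 array above background. It averaged -2.95 ± 0.21 at P200 and -3.70 ± 0.22 at P20 (SD, n = 4 each), and with normexp background correction its difference was 0.26 (adjusted p = 0.147). Acvr1b and Acvrl1 map 0.674 and 0.748 Mb from Krt79, among the neighbours described above. Acvrl1 passed in 3 of 8 fits with an array left out.

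Downstream in the same pathway, the co-repressor Ski rose by 0.52 ± 0.07 (adjusted p = 0.00143) and the ubiquitin ligase gene Smurf1 fell by 0.23 (SE 0.06, adjusted p = 0.0393), a call that held in 0 of 8 fits with an array left out. The signal carriers Smad2 and Smad4 had differences of -0.04 ± 0.07 and -0.06 ± 0.08 (adjusted p = 0.799 and 0.727), and the ligand gene Tgfb1 one of -0.10 ± 0.12 (adjusted p = 0.701). Smad3, the co-receptor Tgfbr3 and the target gene Tgfbi were above background on no array.

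Atp6v0d2 encodes the d2 subunit of the vacuolar ATPase, the pump that acidifies lysosomes, a form used by osteoclasts and by lung macrophages in place of the common d1 subunit. Its probe lies at chr5:34476269-34476328 on the minus strand. It read 3.29, 3.97, 3.92 and 3.93 at P200, against 4.09, 4.01, 3.81 and 4.08 at P20. P200 replicate 1 stood well below the other 7 arrays, which overlapped. The change was -0.22 ± 0.15 (95% interval -0.57 to 0.13, adjusted p = 0.454), and -0.06 without P200 replicate 1.

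Of the 20 other pump subunits and accessory genes listed, 18 were measured, 0 rose, 2 fell and 16 did not pass, or 11.1%, close to the 11.5% of all genes, with a median change of -0.11. One of the counted falls, Atp6v1b1, the kidney form of the B subunit, entered the test only through P20, with 2 P200 arrays and 4 P20 arrays above background. It averaged -3.58 ± 0.19 at P200 and -2.93 ± 0.25 at P20 (SD, n = 4 each). With normexp its difference was -0.12 (adjusted p = 0.550), and it passed in 12 of 19 other settings. Atp6v0b, of the membrane ring, fell by 0.22 (SE 0.05, adjusted p = 0.0337), a call kept in 1 of 8 fits with an array left out. Atp6v0d1, the common form of the d subunit, had a difference of -0.13 ± 0.08 (adjusted p = 0.406), and the macrophage and osteoclast a3 subunit Tcirg1 one of 0.05 ± 0.09 (adjusted p = 0.802).

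**Figure D3:**
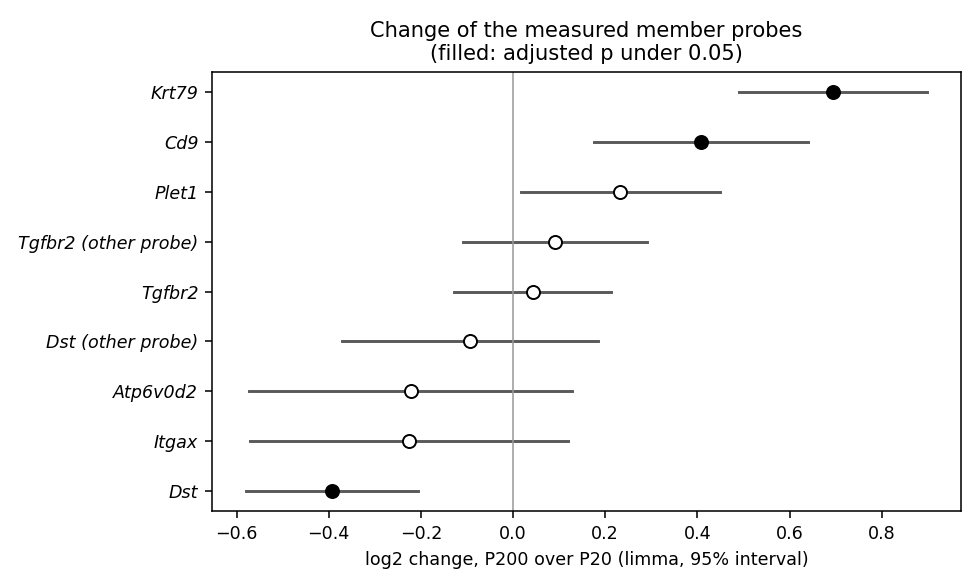
Log2 change, P200 over P20, of each tested probe of the members, with its 95% interval from limma, filled where the adjusted p was under 0.05. The intervals of Krt79, Cd9 and the Dst probe with the highest signal lie to 1 side of 0, as does that of Plet1, which misses the adjusted threshold.

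Of these 7 members, P200 replicate 1 gave the lowest P200 value for 6, while over all genes it was the lowest of its group for 31.6%. P20 replicate 3 gave the lowest P20 value for 6 of 7, against 28.5% over all genes. Both of these arrays lie in slide row 2.

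The 3 remaining members had no array above background at either passage. Car4 encodes a carbonic anhydrase held on the outer membrane, Chi3l1 a chitinase-like lectin secreted by activated macrophages, and Bach2 a repressor that pairs with small Maf proteins and that mouse alveolar macrophages need for normal handling of surfactant lipid. Their probes lie at chr10:73237515-73237574, chr13:47146100-47146159 and chr5:48881779-48881838, all on the plus strand. The probes are shown because a signal near background speaks only for the transcript parts they read, the first and the last as their first 30 bases.

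Car4 probe, bases 1 to 30: acctcaacctttagaggatatggcttctct

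Chi3l1 probe, bases 1 to 60: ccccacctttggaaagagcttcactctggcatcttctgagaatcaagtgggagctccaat

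Bach2 probe, bases 1 to 30: ccacttgcactgagttttgagtcaaaccta

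Car4 lay at -5.96, -5.96, -5.70 and -5.39 on the P200 arrays, against -6.37, -5.94, -5.59 and -5.52 on the P20 arrays. Chi3l1 lay at -5.95, -5.49, -5.68 and -5.37 at P200, against -6.34, -6.16, -5.55 and -5.51 at P20. Bach2 lay at -5.86, -5.90, -5.62 and -5.29 at P200, against -6.29, -6.13, -5.51 and -5.49 at P20. These values are all under the lowest signal marked well above background on any of the 8 arrays, which was -5.11, so no fold is given for them. By a looser mark, a signal positive and significant against background, Chi3l1 passed on 1 P200 array and Car4 on 1 P20 array, and Bach2 on none. The probes were not well above background, which sets an upper bound on the signal and does not show that no transcript was made.

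Relatives of these 3 genes were partly measured. Of 13 other carbonic anhydrases 6 were measured, 1 rose and 1 fell, or 33.3%, with a median change of 0.04. Car11, a relative without enzyme activity, was above background on all 4 P200 arrays and no P20 array, so that it entered the test only through P200. It was higher at P200 by 3.43-fold (adjusted p = 4.3e-05), with -2.09 ± 0.11 at P200 and -3.87 ± 0.28 at P20 as measured (SD, n = 4 each). With normexp, whose offset of 50 draws dim values together, its difference was 0.63. The cytosolic enzyme gene Car13 fell by 0.41 (SE 0.10, adjusted p = 0.0256) and passed in 4 of 8 fits with an array left out, and the common cytosolic form Car2 had a difference of 0.13 ± 0.18 (adjusted p = 0.736). For genes dim at 1 passage, a floored fold is given below. It sets the bright group against the lowest well-above-background signal of each dim array, or the dim value itself where that was higher. It is no lower limit, since the P20 values of Car11 lay above that signal and were still not marked well above background.

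Of 5 chitinases and chitinase-like genes, Chia, Chit1 and Chi3l3 were also above background on no array. The other 2, the lysosomal genes Chid1 (-0.11 ± 0.07, adjusted p = 0.383) and Ctbs (-0.00 ± 0.06, adjusted p = 0.980), did not pass limma's test, and 0 of them had an unadjusted p under 0.05.

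The known partners of Bach2 were above background. All 13 listed partners and competitors were measured, of which 3 fell, 0 rose and 10 did not pass, or 23.1%, with a median change of -0.07. The 3 are the small Maf genes, whose proteins form the DNA-binding pair with Bach factors and with NRF2. Maff fell by 0.51 (SE 0.10, adjusted p = 0.0128), Mafk by 0.40 (SE 0.10, adjusted p = 0.0308) and Mafg by 0.37 (SE 0.08, adjusted p = 0.0218), and they passed in 8, 2 and 4 of 8 fits with an array left out. Mafg, for example, read 3.61, 3.47, 3.37 and 3.27 at P200, against 3.72, 3.80, 3.81 and 3.86 at P20, with no overlap. Bach1, the related repressor, had a difference of -0.02 ± 0.15 (adjusted p = 0.955) and Nfe2l2, the gene of NRF2, one of -0.02 ± 0.09 (adjusted p = 0.922).

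The wider set of 40 alveolar macrophage genes held further genes without signal at both passages. Of the 39 found on the array, Fpr1, Pdcd1lg2, Cd2, Lepr, Perp and Cebpa were above background on no array. Marco, the scavenger receptor for unopsonised particles that is typical of lung macrophages, was above background on 1 P200 array and 0 P20 arrays, and so was the fatty acid carrier gene Fabp1. Ctsk was above it on 1 P200 array and 2 P20 arrays. The lung macrophage markers above background at neither passage are therefore Car4, Chi3l1 and Bach2 among the members and these 6 in the wider set.

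**Figure D4:**
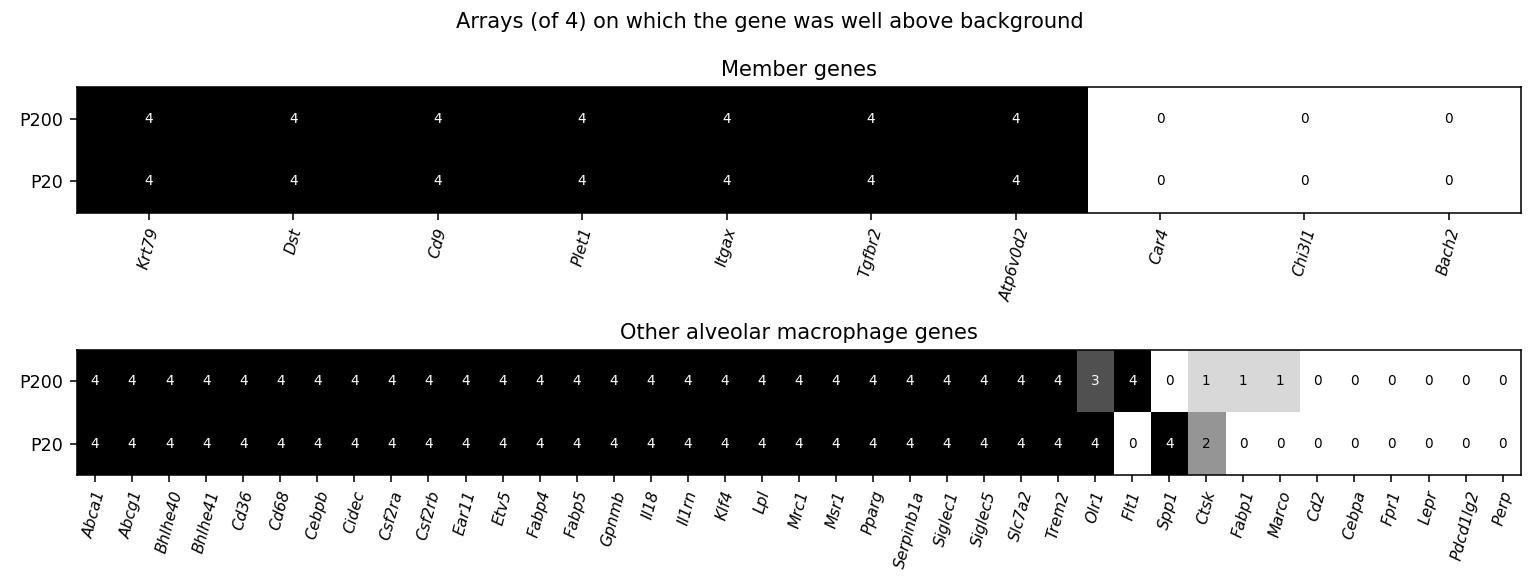
Number of arrays, of 4 at each passage, on which a gene was well above background, with P200 above P20, for the 10 members and the 39 other alveolar macrophage genes found on the array. The members split into 7 genes at 4 of 4 on both rows and 3 genes at 0, and Flt1 and Spp1 are at 4 of 4 at 1 passage and at 0 at the other.

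Of these 39 genes, 30 were measured, 5 rose, 5 fell and 20 did not pass, or 33.3%, with a median change of -0.00. The falls included 4 receptors, for modified lipids or for sialic acid. Msr1, the class A scavenger receptor, read -1.06, -0.57, -0.09 and -0.74 at P200, against 2.49, 2.58, 2.48 and 2.35 at P20, a fall of 3.09 on the log2 scale (SE 0.18, adjusted p = 7.85e-06). Siglec5 changed by -1.69 ± 0.11 (adjusted p = 1.85e-05), Siglec1 by -0.56 ± 0.14 (adjusted p = 0.0347) and the oxidised lipoprotein receptor gene Olr1, above background on 3 P200 arrays and 4 P20 arrays, by -1.41 ± 0.29 (adjusted p = 0.0153) and by -0.65 with normexp. With an array left out, Siglec1 passed in 4 of 8 fits. Spp1, the gene of osteopontin, was lower at P200 (floored fold 3.50, adjusted p = 2.51e-07). It had 0 P200 arrays above background, so that it entered the test only through P20. With normexp its difference was -0.51.

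On the rising side, the VEGF receptor gene Flt1 was higher at P200 (floored fold 5.37, adjusted p = 0.00405), with 0 P20 arrays above background. It averaged -1.83 ± 0.39 at P200 and -4.45 ± 0.92 at P20 as measured (SD, n = 4 each). It too entered the test through 1 passage alone, and with normexp its difference was 0.93. Csf2rb, the shared signalling chain of the GM-CSF receptor, rose by 0.57 ± 0.10 (adjusted p = 0.00727), whereas its ligand-specific chain Csf2ra had a difference of -0.15 ± 0.10 (adjusted p = 0.422). The transcription factor gene Klf4 (0.42 ± 0.09, adjusted p = 0.0181), the lipid droplet gene Cidec (0.34 ± 0.07, adjusted p = 0.0148) and the cytokine gene Il18 (0.30 ± 0.07, adjusted p = 0.0222) also rose, and passed in 5, 7 and 4 of 8 fits with an array left out.

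Several genes of the alveolar fate and of lipid handling had no passing difference. Pparg, the master factor of the alveolar fate, was above background on all 8 arrays and had a difference of -0.16 ± 0.16 (adjusted p = 0.599). Its known target Fabp4 had a difference of 0.05 ± 0.12 (adjusted p = 0.857), the lipase gene Lpl one of -0.19 ± 0.11 (adjusted p = 0.379) and the cholesterol exporter gene Abcg1 one of 0.06 ± 0.07 (adjusted p = 0.710). The mannose receptor gene Mrc1 had a difference of 0.51 ± 0.17 (adjusted p = 0.106).

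Across the companion lists, 113 genes were tested, and 16 rose and 13 fell, against 6.00% and 5.54% of all genes. Of these 29, 6 passed the background filter through 1 passage only (Flt1, Spp1, Car11, Acvr1b, Atp6v1b1 and Olr1). Entry by that way favours genes that differ. Among the 107 companion genes above background on all 8 arrays, a division made after the values were seen, 13 rose and 10 fell, against 5.61% and 4.55% of all such genes. Of the 16 that rose, 5 lie on chromosome 7 with Krt79 (Csf2rb, Acvrl1, Acvr1b, Plec and Tspan31), as does 1 of the 13 that fell, Maff. Of the 113 tested, 8 lie on that chromosome.

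The cell type in the labels was set against markers of other cells. Of 16 alveolar macrophage markers on the array, the members included, 13 were above background on at least 1 array. The summed linear level of the list was 300.2 to 386 at P200 and 295 to 331 at P20, in units of the 75th percentile. Such sums follow the length of a list and its few brightest genes, here Krt79 and Pparg, so they do not test cell type. For the interstitial and monocyte-derived macrophage list the sum was 2.95 to 4.60 at P200 and 3.08 to 3.55 at P20. C1qa, C1qb, C1qc, Cd163 and Lyve1 were above background on no array. Of that list, Cd14 fell by 0.91 (SE 0.13, adjusted p = 0.00259). The dendritic cell list lay at 36.1 to 51.8 at P200 and 49.6 to 60.4 at P20, with Flt3, Xcr1, Ccr7 and Cd209a above background on no array. Its genes Batf3 (-1.47 ± 0.09, adjusted p = 1.45e-05) and Clec9a (-0.88 ± 0.13, adjusted p = 0.00248) fell. Cd83, Ccl22 and Itgae, of the same list, were above background on all arrays and did not pass limma's test. The list for osteoclasts, which also use Atp6v0d2, lay at 25.8 to 28.8 at P200 and 34.2 to 36.8 at P20, and Mmp9 fell by 1.37 (SE 0.18, adjusted p = 0.00129).

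Epcam and Cdh1, of epithelial junctions, and the surfactant genes Sftpa1, Sftpb and Sftpd were above background on no array. Abca3, Ager and Hopx, of the same lung epithelium list, were above it on all arrays and did not pass limma's test. The lung epithelium list summed to 17.0 to 19.6 at P200 and 16.0 to 17.7 at P20. Cldn18, of that list, was lower at P200 (floored fold 3.49, adjusted p = 3.62e-06). It had 0 P200 arrays above background, so that it entered the test only through P20. With normexp its difference was -0.57. For endothelium, fibroblasts, B lymphocytes and T lymphocytes 0 measured markers passed limma's test (1 of them, Cd22, had an unadjusted p under 0.05). Kdr, Tek, Pdgfra, Col1a1, Ms4a1 and Cd8a were above background on no array. Pecam1, Cdh5, Vwf, Col1a2, Dcn, Thy1, Pax5, Cd22, Cd3d and Lck were above it on all arrays. The B lymphocyte list summed to 37.3 to 44.7 at P200 and 35.4 to 38.1 at P20. In the same order, the endothelium sums were 15.9 to 19.4 and 14.5 to 17.2. Those for fibroblasts were 7.47 to 8.75 and 6.67 to 7.65, and for T lymphocytes 0.83 to 1.13 and 0.86 to 1.62. The part of these lists in the members' changes was not tested.

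**Figure D5:**
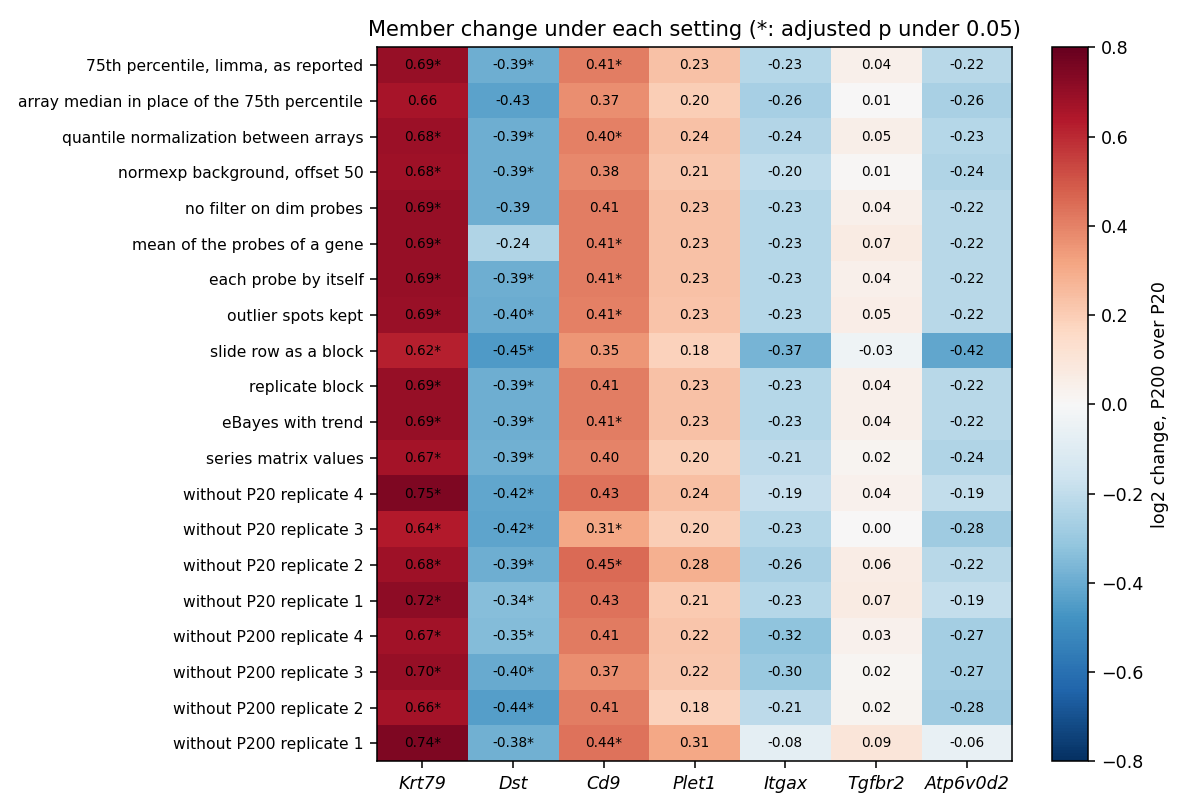
Log2 change, P200 over P20, of the 7 tested members (columns) under each processing setting and with each array left out in turn (rows), by colour and number, with a star where the adjusted p was under 0.05. Krt79 is starred in 18 of the 19 alternatives, Dst in 16 and Cd9 in 8, and Itgax and Atp6v0d2 come nearest to 0 without P200 replicate 1.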

How the data were processed

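RNA of 8 cultures was hybridised to 1-colour (Cy3) Agilent arrays. The deposited scanner files hold spot intensity, made with Agilent Feature Extraction 11.0.1.1, per the submitters' processing notes. Background was subtracted within an array, per the file headers. All arrays lie on 1 slide, read in 1 scan. The authors' series matrix holds raw spot medians, and its P200 columns 1 to 4 carry scanner files 2, 3, 4 and 1. Replicate numbers here are those of the scanner files.

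Of 62976 spots, 4259 controls and the marked outlier spots were left out, and the spots of a probe were averaged. Log2 signal less the array's 75th percentile was used. Of 45598 probes, 84 had no usable spot on some array, and 19458 were well above background on all 4 arrays of a group. Each gene took its brightest probe, giving 15651 genes. RefSeq (GRCr8) gave names by accession to 21109 probes and by symbol or synonym to 7108, and 17381 kept the file name. Map positions are those of the files (rn4), and probe sequences come from the files.

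P200 was set against P20 with limma 3.58.1 in R 4.3.3 (lmFit, eBayes, no covariate, two-sided, Benjamini-Hochberg over all genes, threshold 0.05), after a test on simulated data. Named were all members with every probe, up to 3 called genes per companion list with the largest change (the best-ranked where none passed), and markers of other cells. Further list genes were named after their values were seen. The members and lists were chosen with earlier results of these data known. Values of a few list genes are not reported here. The number of arrays limits the precision. Alternatives were other scalings, background correction, filters, probe choices, blocks, the series matrix and leaving out each array.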

Additional observations from a re-analysis of the deposited data

Results flagged for a closer look

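In groups of 4 arrays, 1 array stood apart from the other 3 by a gap whose share of the group's range passed Dixon's 95% critical value in 5 of 55 groups examined, and chance gives about 1 in 20. For Cd9 it was P20 replicate 3, the lowest of its group at 3.62, with a ratio of 0.857. For Atp6v0d2 it was P200 replicate 1, the lowest at 3.29, with a ratio of 0.936. Among the companion genes, Flt1 was lowest on P200 replicate 4 (-2.40, ratio 0.859), Plec highest on P200 replicate 4 (5.66, ratio 0.878) and Mafk highest on P200 replicate 3 (-1.42, ratio 0.924). Without P20 replicate 3 the Cd9 change was 0.31 and still past the threshold, and without P200 replicate 1 the Atp6v0d2 change was -0.06.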

How the results depend on the processing

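Krt79 passed in 18 of 19 alternatives, the Dst probe with the highest signal in 16 and Cd9 in 8, and Plet1, Itgax, Atp6v0d2 and Tgfbr2 in 0. The number of members called was 0 with the array median and 1 with no filter on dim probes, against 3, and 2 or 3 in the other settings. All genes called were 653 with the array median (286 higher, 367 lower) and 811 with no filter (388 higher, 423 lower), against 1806. The array median sits at -4.50 to -3.73 on the log2 scale relative to the 75th percentile, near background. With each array left out in turn, 1269 to 1699 genes and 2 to 3 members were called, Krt79 and Dst in all 8 and Cd9 in 3 of 8. Cd9 was lost without P200 replicate 2, 3 or 4 (adjusted p = 0.0767, 0.0954 and 0.0615) and without P20 replicate 1 or 4 (0.0621 and 0.0599). The sign turned only for Tgfbr2, at -0.034 with slide row as a block. By the positive and significant mark, 1 member in place of 3 was never above background. The deviations of same-numbered arrays correlated at 0.02, 0.13, -0.00 and 0.28. With so few arrays this cannot decide whether the numbers pair the samples, and the labels do not say. The replicate block gave 1493 genes and 2 members, Cd9 having an adjusted p of 0.0947. Of the changes of other named genes under these alternatives, 542 kept their side of the threshold and direction and 142 lost the call. The cause was not tested. Depth here is signal over background, which limits Acvr1b, Atp6v1b1 and Olr1, each below it on some arrays.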
